A study of Mus musculus with 112 samples.

Results

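Fgf4, Fgf5, Fgf8, Fgf15 and Fgf17 encode secreted fibroblast growth factors of the early mouse embryo. They were picked by name on Illumina bead arrays, and 6 of the 45281 probes carry their symbols, 1 for each gene and a second, dimmer probe for Fgf17. The 5 genes stand among 28888 gene names in all. The study asked whether epiblast stem cells (EpiSC), pluripotent lines grown from the epiblast after implantation, are alike whatever the stage of the embryo they came from. It holds 112 arrays. EpiSC of strain R1-129 gave 65 arrays from 18 lines, of which 4 also had a subline (marked *), thawed at another time but from the same embryo. The lines came from embryos at the Cavity stage (4 lines, embryonic day 5.5 to 6), Prestreak (3 lines, day 6 to 6.5), Late Midstreak (6 lines, up to day 7.5), Early Bud (2 lines, day 7.5 to 8) and Late Bud (3 lines, around day 8). They had been passaged 10 to 19 times and were lifted off a fibroblast layer with collagenase. EpiSC9 is an imported 129SvJ line, with 3 cultures at passage 24 and 1 RNA sample supplied from elsewhere. The unamplified RNA was completed by 9 arrays of 3 induced pluripotent stem cell (iPSC) lines made from tail tip fibroblasts of (C57BL6xC3H)F1 hybrid mice, 3 arrays of 1 embryonic stem cell (ESC) line of strain R1-129 at passage 22 and 2 arrays of ARC/s mouse embryonic fibroblasts (MEF). Amplified RNA was measured in 12 cultures of 4 EpiSC lines (CAV2, LB2, LMS3 and PS5) and in 17 dissected R1-129 epiblasts, each from 1 embryo. The epiblasts were joined into early (4, Cavity and Prestreak), streak (6, Late Midstreak and Late Streak) and bud (7, No bud, Early Bud and Late Bud) periods. The groups therefore differ in strain, passage and culture as well as in cell type.

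Fibroblast growth factors bind receptor tyrosine kinases together with heparan sulfate and act mainly through the ERK kinase cascade, whose targets include its own inhibitors. Fgf4 is made by the inner cell mass and by ESC, in which it signals back to the same cells and promotes their exit from the naive state. Fgf5 marks the epiblast after implantation and is the usual marker that separates it from naive cells. Fgf8 is made by the epiblast and the primitive streak and is needed for cells to leave the streak. Fgf17 belongs to the same subfamily as Fgf8 and is expressed later in the streak and in the midbrain and hindbrain region. Fgf15, the mouse counterpart of human FGF19, is expressed in the embryonic nervous system and in the gut, where it acts as a hormone on bile acid synthesis. EpiSC are grown with activin and fibroblast growth factor, in contrast to ESC, which depend on leukaemia inhibitory factor.

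Fgf4 and Fgf15 lie next to each other on chromosome 7, in the order Fgf3, Fgf4, Fgf15 among protein-coding genes (RefSeq, assembly GRCm38.p6). Promoters of 2 of the 5 genes, Fgf4 and Fgf5, were at hand in RefSeq (GRCm38.p6), and they are shown because these genes moved in opposite directions between EpiSC and ESC. Each line holds the 250 bases before the annotated start, 5′ to 3′ on the plus strand, chr7:144861136-144861385 for Fgf4 and chr5:98253934-98254183 for Fgf5. Capitals mark matches to the GC box GGGCGG or its complement on the other strand.
Fgf4: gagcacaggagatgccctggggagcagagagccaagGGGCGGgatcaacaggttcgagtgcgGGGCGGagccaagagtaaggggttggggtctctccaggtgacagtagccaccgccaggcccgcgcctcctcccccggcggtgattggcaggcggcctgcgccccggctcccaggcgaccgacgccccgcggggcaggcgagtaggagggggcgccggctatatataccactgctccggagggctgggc
Fgf5: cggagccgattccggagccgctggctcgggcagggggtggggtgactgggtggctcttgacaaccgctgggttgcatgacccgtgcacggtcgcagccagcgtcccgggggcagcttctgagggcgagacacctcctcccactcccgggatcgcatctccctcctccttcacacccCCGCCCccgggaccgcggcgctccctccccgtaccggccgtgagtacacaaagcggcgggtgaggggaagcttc
A GC box on either strand stood in 35.7% of 32851 promoter windows of 300 bases (250 before and 50 after the start). Within its window Fgf4 had 2 such matches, beginning 214 and 188 bases before the start, and Fgf5 had 1, on the minus strand, beginning 74 bases before it. The TATA box TATAAA, found in 13.6% of windows, matched once in the Fgf5 window, at base 35 after the start, and not in the Fgf4 window. Only exact matches were counted, so the run tatatata near the end of the Fgf4 line was not. The POU octamer ATGCAAAT (1.74% of windows), the Sox core CATTGT (12.6%), the T-box site TCACACCT (1.28%) and the TCF and LEF site CTTTGAT (3.73%) matched neither. None of these motifs overlap.

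Values are log2 intensities after background correction and quantile normalization, and a probe counts as detected at a detection p under 0.01 against the control beads of its own array. A probe's values are comparable between arrays, not with those of another probe, and the number of arrays limits the precision. Arrays detected between 32.7 and 41.1% of probes in unamplified RNA. Among amplified arrays the share was 24.6 to 32.7% in EpiSC, 25.4 to 28% in early epiblasts, 24.7 to 29% in streak epiblasts and 21.3 to 25.2% in bud epiblasts. Markers fixed for each cell type went with the labels in part. Of 5 naive pluripotency markers, 2 were detected on most EpiSC arrays, against 5 of 5 in ESC, and Dppa3 on no EpiSC array. All 5 markers of pluripotent cells (Pou5f1, Nanog, Sox2, Dnmt3b, Otx2) were detected on most arrays of EpiSC, ESC, iPSC and of early and streak epiblasts, while in bud epiblasts 4 were, and Sox2 was detected on none. Of 6 fibroblast markers, 5 were detected on most EpiSC arrays (summed log2 level 39.06 to 54.91) and 5 on MEF arrays (62.83 to 63.62), against 4 on ESC arrays (36.92 to 38.36).

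Some libraries stood apart or went against their labels. Across 11129 genes (not independent replicates), Pearson correlations of iPSC line 3 arrays with ESC arrays were 0.995 to 0.996, and ESC cultures reached 0.996 among themselves. For iPSC lines 1 and 2 against ESC the values were 0.936 to 0.95. Culture 1 of iPSC line 1 and culture 1 of iPSC line 2 correlated with each other at 0.995 and with the other cultures of these lines at 0.963 to 0.97. Amplified arrays labelled PS5 resembled unamplified LB2 (r = 0.549 of deviations from the mean over the 4 lines) rather than PS5 (-0.224), and those labelled LB2 resembled PS5 (0.316) rather than LB2 (-0.102). The library labelled PS5 or LB2 is therefore meant below wherever amplified RNA of these lines is named. The epiblasts EB3 and LB3 carry a description of cultured cells. ESC and iPSC arrays formed a set of their own by the levels of 13482 background probes, so what belongs to the set and what to the cells cannot be told apart there. In tissue and culture RNA alike, fewer cells that make a ligand and less RNA per cell cannot be told apart.

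Fgf4 was the ligand that no EpiSC culture showed. It was not detected on any of the 65 EpiSC arrays, where its values ran from 4.316 over a median of 4.52 to 4.98, against 6.96, 6.95 and 6.81 in the 3 ESC cultures, all detected. It was also detected on 9 of 9 iPSC arrays, at 5.8, with a median of 6.82, to 6.98. Fgf4 was thus at least 3.23-fold lower in EpiSC lines than in ESC and at least 2.71-fold lower than in iPSC lines (limma, adjusted p = 8.56e-12 and 2.22e-15). It entered this fit only through the 12 ESC and iPSC arrays that detected it. The EpiSC spread behind these p-values is that of undetected values, not of expression. Here "at least" means that an array on which the probe was missed enters at the level of its dimmest detected probe, where that is higher. The lowest iPSC values, 6.14 and 5.8, were those of culture 1 of lines 1 and 2. EpiSC9 (4.51, 4.89 and 4.64), the EpiSC9 RNA from elsewhere (4.6), MEF (4.58 and 4.46), 17 of 17 epiblasts and 12 of 12 amplified EpiSC arrays did not show Fgf4 either. The epiblasts of the Cavity stage had 4.92 and 5.24. The Fgf4 probe reached a raw intensity of at most 281 on any array, so low levels cannot be told apart from absence.

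**Figure D1:**
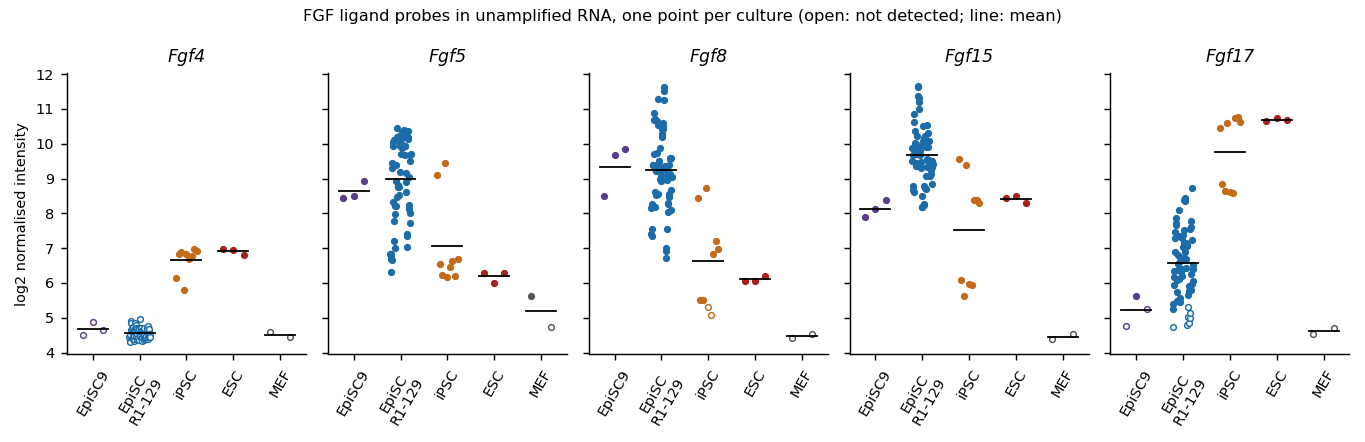
Log2 normalised intensity (y axis) of the probe of each ligand in unamplified RNA of EpiSC9, R1-129 EpiSC, iPSC, ESC and MEF, with 1 point per culture, open where not detected, and a line at the mean. Fgf4 and Fgf17 sit higher in ESC and iPSC than in EpiSC, and Fgf5 and Fgf8 higher in EpiSC than in ESC, with iPSC cultures split into separate levels.

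Fgf17 moved the same way as Fgf4. It ran from 4.72 over a median of 6.52 to 8.72 in EpiSC (58 of 65 arrays detected it), against 10.64, 10.73 and 10.67 in ESC and 8.6, with a median of 10.44, to 10.76 in iPSC. EpiSC and ESC values did not overlap. The difference was -4.12 ± 0.91 on the log2 scale between EpiSC lines and ESC (17.4-fold lower, limma adjusted p = 0.00171, SE, 18 lines against 1) and -3.21 ± 0.55 against iPSC lines (9.24-fold lower, adjusted p = 6.34e-05, 18 lines against 3). The second Fgf17 probe was detected on 3 of 65 EpiSC arrays, 3 of 3 ESC arrays and 6 of 9 iPSC arrays, and was at least 2.99-fold lower in EpiSC lines than in ESC and at least 1.72-fold lower than in iPSC lines (limma adjusted p = 1.36e-05 and 4.37e-06). As for Fgf4, the EpiSC spread behind the p-values of this second probe is mostly that of undetected values, not of expression.

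Fgf8 and Fgf5 moved the other way. Fgf8 ran from 6.71 over a median of 9.25 to 11.62 in EpiSC, against 6.06, 6.06 and 6.2 in ESC, without overlap. In iPSC it ran from 5.07 over a median of 6.84 to 8.74, overlapping EpiSC. Fgf8 was 3.06 ± 0.91 log2 units higher in EpiSC lines than in ESC (8.35-fold, limma adjusted p = 0.0155) and 2.54 ± 0.55 higher than in iPSC lines (5.83-fold, adjusted p = 0.000742). The second value was 3.26 without culture 1 of iPSC lines 1 and 2 and 3.82 also without iPSC line 3. Fgf5 ran from 6.32 over a median of 9.3 to 10.45 in EpiSC, against 6.28, 6 and 6.3 in ESC, which lie just below the lowest EpiSC culture. The difference was 2.79 ± 0.97 (6.9-fold, limma adjusted p = 0.0379). In 5 of 13 alternative settings this call was lost, with an adjusted p of up to 0.0728. Against iPSC lines Fgf5 was 1.92 ± 0.59 higher (3.79-fold, adjusted p = 0.0117), a call lost without iPSC line 3 (1.65, adjusted p = 0.0799). Without culture 1 of iPSC lines 1 and 2 it was 2.57 (adjusted p = 0.00111), and also without line 3 it was 2.62 (adjusted p = 0.00581).

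Fgf15 was detected on every EpiSC, ESC and iPSC array and showed no called difference between EpiSC lines and ESC. EpiSC cultures ran from 8.17 over a median of 9.55 to 11.66, against 8.45, 8.5 and 8.28 in ESC, within the EpiSC range. The difference was 1.27 log2 units, with a 95% interval from -0.27 to 2.82 (limma adjusted p = 0.218). Against iPSC lines Fgf15 was 2.16 ± 0.45 higher (4.48-fold, adjusted p = 0.00055), or 2.95 without culture 1 of iPSC lines 1 and 2 and 3.77 also without iPSC line 3. In all, 4 of the 5 ligands passed the test between EpiSC lines and ESC, 2 in each direction, where 26.2% of 15032 genes tested passed. T, a streak gene, was 3.05 higher in EpiSC lines than in ESC, the only one called among 5 streak and mesoderm markers tested. Eomes (0.8), Tbx6 (0.2), Mixl1 (0.09) and Mesp1 (0.004) were not called. The fibroblast genes Dcn (4.09) and Lum (4.09) were higher among 5 fibroblast markers tested, and Col1a1 (-0.29), Col1a2 (-0.26) and Col3a1 (1.44) were not called. The part of these markers in the ligand values was not tested. Against iPSC lines 5 of 5 passed, 3 higher and 2 lower, where 42.4% of genes passed. Both counts include Fgf4, whose EpiSC values were all undetected.

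Between the iPSC lines and ESC no ligand was called (0 of 5 in limma, where 0% of genes passed at this limit, and an unadjusted p of at least 0.125 for each). As 0% of genes passed, this test cannot show that iPSC and ESC are alike. The iPSC cultures were far apart. Fgf15 stood at 9.55 and 9.4 in culture 1 of iPSC lines 1 and 2, at 8.39, 8.39 and 8.3 in iPSC line 3 and at 6.09, 5.63, 5.98 and 5.96 in the other cultures. Fgf8 stood at 8.44 and 8.74 in culture 1 of lines 1 and 2, at 6.84, 7.2 and 6.99 in line 3 and at 5.52, 5.5, 5.31 and 5.07 elsewhere, the last 2 not detected. Fgf5 followed, with 9.11 and 9.44 in culture 1 of lines 1 and 2 and between 6.18 and 6.7 in the other 7 cultures. Fgf17 stood between 10.44 and 10.76 in culture 1 of lines 1 and 2 and in line 3, against 8.85, 8.65, 8.61 and 8.6 in the rest. The streak gene T, a transcription factor of nascent mesoderm, was high in the same cultures (8.85 and 8.98 in culture 1 of lines 1 and 2, 7.29 to 7.32 in line 3, 4.45 to 6.11 in the other 4), and whether it has a share in them was not tested. Markers of visceral endoderm, summed over 5 genes, ran from 24.58 to 37.06 over the iPSC arrays, against 24.69 to 25.18 in ESC, and this too was not tested. Without culture 1 of both lines and without line 3, the Fgf15 difference between iPSC and ESC was -2.5 (adjusted p = 0.0695).

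MEF, the kind of cell that lies under EpiSC in culture, did not show Fgf4, Fgf8, Fgf15 or Fgf17 on either array, and showed Fgf5 on 1 of 2 (5.61 and 4.75). Against MEF, 3 of 5 ligands passed in EpiSC lines, where 43.3% of genes did. Fgf15 was at least 17.5-fold higher and Fgf8 at least 12.2-fold higher (limma adjusted p = 6.94e-06 and 0.000226), and Fgf5 was 3.8 ± 0.97 log2 units higher (adjusted p = 0.00304). Fgf17 had an adjusted p of 0.0886 there.

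EpiSC9 was within or next to the range of the R1-129 lines in each ligand. Fgf5 averaged 8.63 ± 0.27 and Fgf8 9.34 ± 0.73 in its 3 cultures (SD), against line means of 8.98 ± 1.07 and 9.17 ± 1.00 in R1-129 EpiSC (SD, n = 18 lines). Fgf15 averaged 8.13 ± 0.23 in EpiSC9, below the lowest R1-129 line mean of 8.28, against a mean of 9.69 ± 0.79. The Fgf15 difference was -1.55, with a 95% interval from -3.1 to -0.004 and a limma adjusted p of 0.394. None of the 5 ligands passed (1.69% of genes did). The RNA of EpiSC9 supplied from elsewhere had 9.6 for Fgf5, 10.08 for Fgf8, 7.44 for Fgf15 and 5.93 for Fgf17, and was not tested.

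No ligand passed the test for the stage of the embryo of origin in EpiSC lines. For Fgf5, line means averaged 7.84 ± 0.81 at Cavity, 8.65 ± 0.90 at Prestreak, 9.43 ± 1.18 at Late Midstreak, 9.37 ± 0.32 at Early Bud and 9.66 ± 0.54 at Late Bud (SD, n = 4, 3, 6, 2 and 3 lines). The ranges of neighbouring stages overlap, and the F test over the 5 stages gave an adjusted p of 0.605 (limma). Fgf15 averaged 11.36 ± 0.26 in the 2 Early Bud lines, EB1a at 11.55 and EB1b at 11.18, above the means of the other 16 lines, which ran from 8.28 to 10.17. Its F test gave an unadjusted p of 0.00174 and an adjusted p of 0.26 (limma). The labels do not say whether EB1a and EB1b come from the same embryo, and with both joined as 1 line the adjusted p was 0.999. For Fgf8 and Fgf17 the adjusted p was 0.894 and 0.975. None of the 4 ligands tested passed, where 0.0139% of 14339 genes did. Fgf4, not detected in any line, was not tested. With origins joined, Fgf5 was 1.36 higher in lines of bud origin than in lines of early origin, with a 95% interval from 0.34 to 2.37 (limma adjusted p = 0.603). It was 1.24 higher in lines of streak origin than of early origin, with an interval from 0.28 to 2.2 (adjusted p = 0.999). No ligand passed in either comparison, where 0% of genes did.

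**Figure D2:**
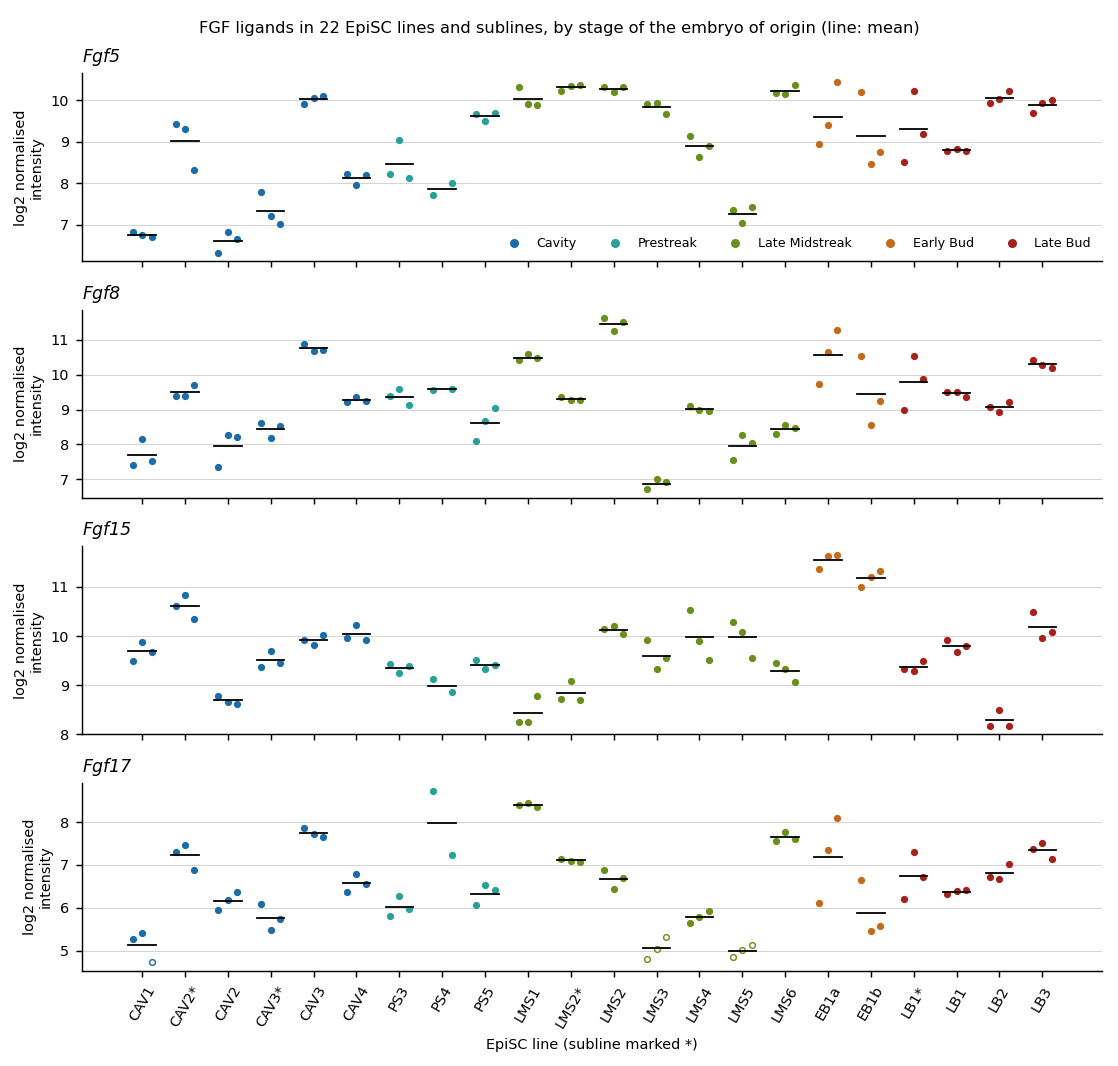
Log2 normalised intensity (y axis) of 4 ligands in the cultures of 22 EpiSC lines and sublines (x axis), coloured by the stage of the embryo of origin, each subline left of its line, open where not detected, with a line at the mean. Fgf15 is highest in EB1a and EB1b, and CAV2*, CAV3* and LMS2* sit away from the lines they share an embryo with.

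The lines differed from each other well beyond the spread between cultures of a line. All 4 detected ligands passed the F test among the 18 lines without sublines (limma, adjusted p from 3.19e-20 for Fgf15 to 1.22e-15 for Fgf17), as 92.2% of 14150 genes did. Over the 22 lines and sublines, Fgf8 spanned 24.1-fold, from 6.87 in LMS3 to 11.46 in LMS2, both of Late Midstreak origin. Fgf5 spanned 13.1-fold, from 6.6 in CAV2 to 10.32 in LMS2*. Fgf17 spanned at least 9.42-fold, between LMS5, not detected, and LMS1 at 8.39, again both of Late Midstreak origin, and Fgf15 spanned 9.62-fold, from 8.28 in LB2 to 11.55 in EB1a. The SD between lines and sublines was 1.18 for Fgf5, 1.1 for Fgf8, 0.8 for Fgf15 and 0.95 for Fgf17, against 0.4, 0.4, 0.23 and 0.38 between cultures of a line. Neighbours in the order of levels were mostly not separate: of 21 neighbouring pairs, the cultures did not overlap in 1 pair for Fgf5, 2 for Fgf8, 2 for Fgf15 and 3 for Fgf17. LMS3 shows how the ligands part, with Fgf5 rather high in its order (9.845), Fgf8 at the bottom of its order (6.87) and Fgf17 not detected in any of its 3 cultures. Fgf17 was likewise not detected in the 3 cultures of LMS5.

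Sublines of the same embryo differed from their lines, in the largest case by 2.69 log2 units. Each was also measured at another passage than its line, later for CAV2* and LB1* and earlier for CAV3* and LMS2*. Passage and thaw therefore cannot be told apart from the subline. In CAV2* all 4 detected ligands were higher than in CAV2 (4 of 4, where 48.2% of 13203 genes passed, 21.8% as higher and 26.4% as lower). Fgf5 had 9.43, 9.3 and 8.32 in CAV2*, against 6.32, 6.83 and 6.66 in CAV2 (2.41 ± 0.28 on the log2 scale, 5.33-fold, limma adjusted p = 8.17e-08). Fgf15 had 10.61, 10.85 and 10.35 in CAV2*, against 8.78, 8.66 and 8.62 in CAV2 (1.92 ± 0.13, adjusted p = 9.37e-12). Fgf8 was 1.54 ± 0.24 and Fgf17 1.07 ± 0.20 higher. Of 5 markers of pluripotent cells Nanog was lower (-1.28) and Sox2 higher (0.99) in CAV2*, of 5 fibroblast markers Col1a1 (-0.81) and Col3a1 (-1.38) were lower, Tfap2c was lower (-0.93), and 0 of 4 streak and mesoderm markers passed. Among the naive pluripotency markers tested, Klf2 was lower in CAV2* (-3.63), and Esrrb and Tfcp2l1 were not called. In CAV3* all 4 were lower than in CAV3 (49.2% of genes passed, 24.9% as lower). Fgf5 had 7.79, 7.21 and 7.01 in CAV3*, against 9.92, 10.05 and 10.11 in CAV3 (-2.69 ± 0.28, limma adjusted p = 1.01e-08). Fgf8 had 8.62, 8.18 and 8.52 in CAV3*, against 10.88, 10.67 and 10.71 in CAV3 (-2.32 ± 0.24). Fgf17 was -1.99 ± 0.20 and Fgf15 -0.41 ± 0.13, the last a call lost with median scaling and without replicate 1 or 3 (adjusted p up to 0.201). The groups did not overlap in any of these 8 comparisons. The share of all genes without overlap was not counted, so these separations cannot be read as particular to the ligands. In CAV3* 3 of 4 streak and mesoderm markers tested were lower, 4 of 5 markers of pluripotent cells were lower with Sox2 higher (1.00), and 3 of 5 fibroblast markers were higher with Col1a1 lower (-0.53). Klf2 was lower in CAV3* too (-2.45), and Esrrb and Tfcp2l1 were not called. The part of the markers in the ligand values of both sublines was not tested.

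LMS2* and LB1* moved fewer ligands. Fgf8 had 9.37, 9.27 and 9.28 in LMS2*, against 11.62, 11.26 and 11.51 in LMS2 (-2.15 ± 0.24, limma adjusted p = 9.18e-08), and Fgf15 was lower by 1.29 on the log2 scale (-1.29 ± 0.13, adjusted p = 1.08e-08). Fgf5 had 10.23, 10.35 and 10.38 in LMS2*, against 10.33, 10.19 and 10.33 in LMS2, a difference of 0.04 with a 95% interval from -0.53 to 0.6. In LMS2*, 2 of 4 ligands passed, both lower (42.7% of genes, 19.8% as higher and 22.8% as lower). Fgf17 was 0.43 ± 0.20 there (adjusted p = 0.0863). In LMS2* 3 of 4 streak and mesoderm markers were lower, T (-3.08, adjusted p = 4.56e-09), Eomes (-1.9) and Mixl1 (-0.78). There 4 of 5 fibroblast markers were higher (0.96 to 1.25), Nanog and Otx2 were lower (-0.57 and -0.77, 2 of 5 markers of pluripotent cells), and Tfap2c was lower (-1.79). The naive pluripotency markers Tfcp2l1 (-2.34), Klf2 (-2.14) and Esrrb (-1.05) were lower in LMS2* as well. In LB1*, 1 of 4 passed (36.7% of genes): Fgf15 had 9.32, 9.29 and 9.48 in LB1*, against 9.92, 9.67 and 9.79 in LB1 (-0.43 ± 0.13, limma adjusted p = 0.0097). Without replicate 1 the Fgf15 call was lost (adjusted p = 0.124) and Fgf5, Fgf8 and Fgf17 passed as higher in LB1* (0.9, 0.78 and 0.6). Eomes (-1.31), Otx2 (-0.89), Col1a1 (-0.71), Tfap2c (-2.03), Klf2 (-2.80) and Tfcp2l1 (-0.87) were lower and Sox2 (1.00) higher in LB1*. Esrrb was not called there, and the part of these markers in either subline was not tested.

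Across the 18 line means Fgf8 and Fgf17 went together. Pearson's r was 0.715 (permutation p adjusted over 6 pairs of ligands 0.0054) and Spearman's rho 0.651 (adjusted p = 0.0257, 100000 permutations each). Without LMS3 and CAV1, the lines farthest from the median of Fgf8, r was 0.564. Within the largest array set, which held 9 lines, r was 0.647, and the other sets held too few lines. For the other 5 pairs the adjusted permutation p was 0.139 or more by either measure, with r from -0.298 to 0.45, and r for Fgf5 with Fgf8 dropped to 0.0596 without CAV1 and LMS5.

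Cultures of the same line also varied together, in a few lines. In EB1a, Fgf8 had 9.72, 10.66 and 11.3 and Fgf17 had 6.11, 7.35 and 8.11 in cultures 1, 2 and 3. In EB1b, Fgf8 had 10.55, 8.56 and 9.23 and Fgf5 had 10.2, 8.46 and 8.75. In LB1*, Fgf8 had 8.98, 10.54 and 9.88 and Fgf5 had 8.52, 10.22 and 9.18. T followed in the same cultures (9.84, 10.13 and 10.9 in EB1a, 10.35, 8.86 and 8.58 in EB1b, 8.21, 10.35 and 8.84 in LB1*). The 2 cultures of PS4 went otherwise, with Fgf17 at 7.22 and 8.72 and Fgf8 between 9.56 and 9.6. As a description over the 65 cultures, deviations from the mean of the own line or subline correlated at 0.673 for Fgf5 with Fgf8, 0.727 for Fgf8 with Fgf17 and 0.631 for Fgf5 with Fgf17, and with T at 0.815 for Fgf5, 0.736 for Fgf8 and 0.642 for Fgf17. The cultures are not independent lines, as each deviation is taken from the mean of its own line or subline. Without EB1a, EB1b and LB1* the 3 values among ligands were 0.0966, 0.393 and 0.19 over 56 cultures, and those with T 0.532, 0.416 and 0.343. Fgf15 differed from these in its values, at -0.0741 with Fgf5, -0.0941 with Fgf8 and -0.0312 with Fgf17.

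**Figure D3:**
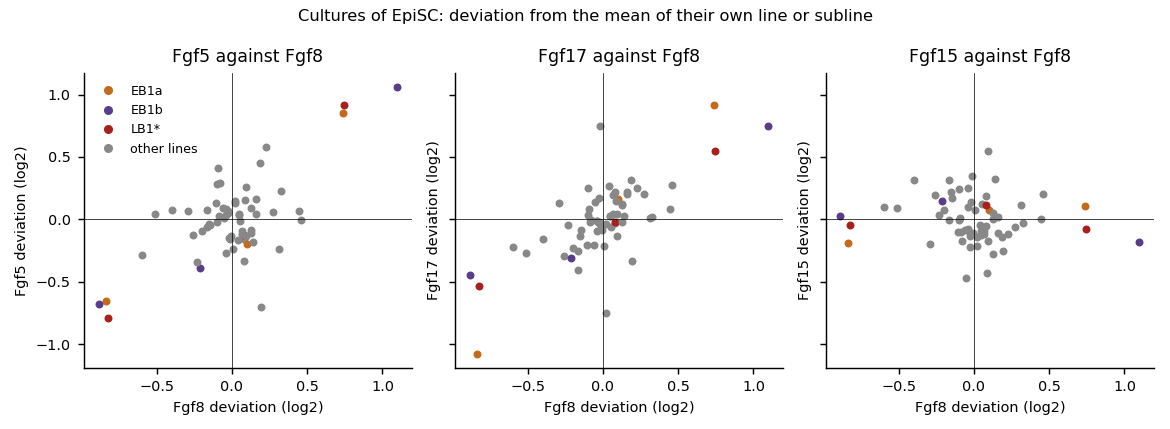
Deviation of each of 65 EpiSC cultures from the mean of its own line or subline (log2), for Fgf5, Fgf17 and Fgf15 (y axes) against Fgf8 (x axes), with the cultures of EB1a, EB1b and LB1* in colour. All 6 cultures with a Fgf8 deviation over 0.6 in size belong to those 3, and Fgf15 shows no such trend (r = -0.0941).

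In dissected epiblasts 3 of the ligands fell between the early and the bud period. Fgf5 was at 10.38 in the No bud epiblast, at 8.9, 9.99 and 8.94 in Early Bud and at 9.37, 9.29 and 9.16 in Late Bud epiblasts, against 11.79 and 11.86 in Cavity and 11.69 and 12.11 in Prestreak epiblasts. No bud epiblast reached the lowest early value. The difference was -2.43 ± 0.29 on the log2 scale (5.39-fold lower, limma adjusted p = 2.32e-06, n = 7 and 4 epiblasts). Fgf8 was at 8.39 in the No bud epiblast, 5.7, 6.98 and 6.3 in Early Bud and 7.46, 5.35 and 4.82 in Late Bud epiblasts, against 9.6, 9.18, 10.03 and 9.33 in early epiblasts. It was detected in 3 of 7 bud epiblasts and was at least 4.94-fold lower (-3.11 ± 0.78, adjusted p = 0.00389). Fgf15 ran from 5.08 over a median of 6.77 to 7.751 in bud epiblasts, detected in 4 of 7, against 9.13, 8.99, 9.1 and 9.19 in early epiblasts (-2.37 ± 0.43, adjusted p = 0.000228). Fgf17 ran from 6.59 over a median of 7.26 to 8.66 in bud epiblasts (5 of 7 detected), against 5.73, 7.24, 7.74 and 7.08 in early epiblasts, a difference of 0.62 with a 95% interval from -0.48 to 1.72. So 3 of 4 ligands tested passed, all lower, where 34% of 12019 genes passed. Bud arrays detected fewer probes than early arrays (21.3 to 25.2% against 25.4 to 28%), and the part of this in the values was not tested.

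The streak means of Fgf5, Fgf8 and Fgf15 lay between those of the early and bud periods, and that of Fgf17 did not (6.65 in streak, 7.57 in bud and 6.95 in early epiblasts). Fgf15 had 7.39, 7.24 and 9.16 in Late Midstreak and 7.74, 7.26 and 6.95 in Late Streak epiblasts, against 8.99 to 9.19 in early epiblasts, with epiblast LMS3 alone at the early level. The difference was -1.48 ± 0.44 (limma adjusted p = 0.046), a call that held in 11 of 30 alternatives and was lost when any early epiblast was left out (adjusted p up to 0.124). It was the 1 ligand of 4 that passed, where 6.29% of genes did. T (3.77) and Mesp1 (4.39), 2 of 4 streak and mesoderm markers tested, and Tfap2c (2.47) were higher in streak than in early epiblasts, and Otx2 was lower (-0.95). Their part in the fall of Fgf15 was not tested. Fgf5 had 10.7, 11.07 and 11.23 in Late Midstreak and 11.64, 11.75 and 11.3 in Late Streak epiblasts, overlapping the early values, and Fgf8 had 7.27, 8.05, 9.64, 9.92, 8.62 and 8.48. From the streak to the bud period Fgf5 fell by 1.85 on the log2 scale (SE 0.26, adjusted p = 3.49e-05) without overlap. Fgf8 was at least 2.7-fold lower (-2.23 ± 0.69, adjusted p = 0.0178), a call lost without EB3 and LB3 (-1.89, adjusted p = 0.0852). These 2 of 4 passed, where 31.5% of genes did. Fgf15 passed as well with median scaling (-1.45, adjusted p = 0.0062) and without epiblast EB2 (-1.06, adjusted p = 0.0405), against an adjusted p of 0.0776.

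**Figure D4:**
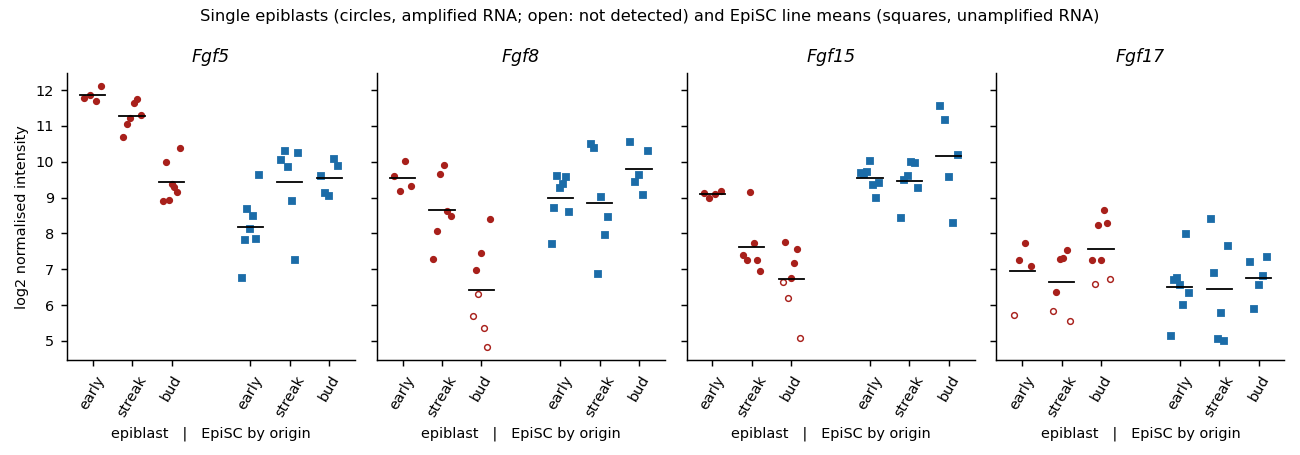
Log2 normalised intensity (y axis) of 4 ligands in single epiblasts by period (circles, amplified RNA, open where not detected) and in EpiSC line means by period of the embryo of origin (squares, unamplified RNA), with lines at the means. Fgf5, Fgf8 and Fgf15 are lower in bud than in early epiblasts, and no such order appears in the lines.

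The change over periods was then tested for a difference between embryos and lines: bud minus early in epiblasts, less bud minus early in EpiSC lines by origin. All epiblast RNA was amplified and all line RNA was not, so a different scale of change after amplification cannot be told apart from a difference between embryos and lines. The Late Streak and No bud stages were present among epiblasts only, so the streak and bud periods also differ in stages between embryos and lines. Fgf5 was -2.43 in embryos, against 1.36 in lines, a difference of -3.79 ± 0.58 (limma adjusted p = 8.25e-06). Fgf8 was -3.11 in embryos, against 0.82 in lines (-3.93 ± 0.80, adjusted p = 0.000368), and Fgf15 was -2.37 in embryos, against 0.6 in lines (-2.97 ± 0.62, adjusted p = 0.000495). The 3 passed in all 43 alternatives run. Fgf17 was 0.62 in embryos, against 0.26 in lines (adjusted p = 0.771). Thus 3 of 4 ligands passed, where 26.3% of 14770 genes did. For the streak against the early period 0 of 4 passed (4.62% of genes). The closest was Fgf5, at -1.82 ± 0.58 (adjusted p = 0.0625).

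Amplified EpiSC RNA gives the direct comparison with epiblasts, over 4 lines. Fgf5 line means were 10.09 in CAV2, 11.03 in PS5, 11.81 in LMS3 and 10.57 in LB2. Of these PS5 lay within the range of the streak epiblasts (10.7 to 11.75), LMS3 just above it and CAV2 and LB2 below it. Fgf5 was 1.44 ± 0.29 higher than in bud epiblasts (limma adjusted p = 0.000525) and Fgf15 1.84 ± 0.43 higher (adjusted p = 0.00171), so 2 of 4 passed, where 44.3% of genes did. Without PS5 and LB2 Fgf17 passed too, as lower (-1.99, adjusted p = 0.0229). Against early epiblasts Fgf5 was -0.99 ± 0.33 (adjusted p = 0.0222, lost in 5 of 30 alternatives) and Fgf8 -2.37 ± 0.88 (adjusted p = 0.0382, lost in 8 of 30 and at -1.55 without LMS3), 2 of 4, both lower, where 36.8% of genes passed and 15% as lower. All 5 fibroblast markers tested were higher in amplified EpiSC than in each epiblast period. Markers of other lists moved in both directions. Against early epiblasts T (3.01) and Klf2 (2.36) were among those higher, and Eomes (-2.80) and Otx2 (-2.26) among those lower. Against bud epiblasts Sox2 (2.98) and Pou5f1 (1.90) were among those higher, and Mesp1 (-2.62) and Tfap2c (-2.51) among those lower. The part of any of these markers in the ligand values was not tested. Fgf8 split the lines, at 9.63, 9.59 and 9.66 in PS5 and 8.8, 8.8 and 9.26 in LB2, against 5.86, 4.83 and 5.43 in CAV2 and 4.67, 4.73 and 4.74 in LMS3. Without PS5 and LB2 the Fgf5 difference from early epiblasts was no longer called (adjusted p = 0.09), while Fgf8, then detected on 1 of 6 arrays, was at least 9.73-fold lower (adjusted p = 0.000132). Against streak epiblasts 0 of 4 passed (31.8% of genes), and without PS5 and LB2 Fgf8 did, at least 5.32-fold lower (adjusted p = 0.000672).

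Amplification moved the values of the probes. Compared with unamplified RNA of the same lines, 3 of 4 ligands passed, as 78.6% of 13139 genes did. Fgf5 was 1.84 ± 0.24 higher after amplification (limma adjusted p = 1.74e-07), with a higher mean under each of the 4 labels. The largest gap was in CAV2, with 10.05, 9.85 and 10.38 amplified, against 6.32, 6.83 and 6.66 unamplified. Under the label LB2 the Fgf5 means were closer, at 10.57 amplified and 10.06 unamplified. Cultures are the unit here, so the p-values in this comparison do not measure how the effect varies between lines. Fgf8 was -0.96 ± 0.33 (adjusted p = 0.0103), and not detected in 3 of 3 amplified LMS3 cultures that had 6.71, 7 and 6.91 unamplified. Without line CAV2 the Fgf8 value was -0.42 (adjusted p = 0.26) and without LMS3 -0.56 (adjusted p = 0.191). Without PS5 and LB2 Fgf8 was at least 2.23-fold lower after amplification (adjusted p = 4.14e-08), Fgf5 was 2.73 higher, Fgf15 was -0.74 and Fgf17 was -0.02 (adjusted p = 0.915). Fgf15 was -0.42 ± 0.19 (adjusted p = 0.0424), which missed the limit in 5 of 12 alternatives, among them the replicate block (adjusted p = 0.104). Amplified PS5 had 8.39, 8.02 and 8.33 for Fgf15 and unamplified LB2 8.17, 8.5 and 8.17, while amplified LB2 had 9.19, 9.26 and 9.28 and unamplified PS5 9.5, 9.32 and 9.41. Fgf17 was 0.34 ± 0.16 (adjusted p = 0.0573).

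**Figure D5:**
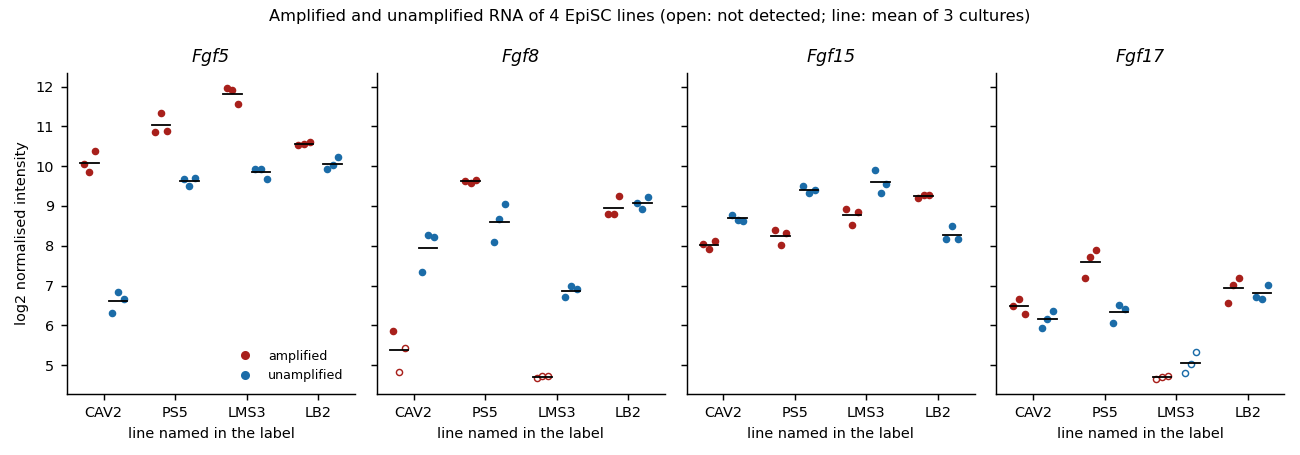
Log2 normalised intensity (y axis) of 4 ligands in amplified and unamplified RNA of the EpiSC lines named by the labels (x axis), with 3 cultures each, open where not detected, and a line at the mean. The mean of Fgf5 is higher after amplification under each of the 4 labels, and Fgf8 was detected in none of 3 amplified LMS3 cultures and in 1 of 3 amplified CAV2 cultures, against 3 of 3 unamplified in both.

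Of the other 13 secreted ligands measured, 7 were tested between EpiSC lines and ESC and 0 passed. Against iPSC lines 3 passed, where 42.4% of all genes did: Fgf22 (0.7) and Fgf9 (0.47) were higher and Fgf1 (-0.77) lower, and the median over the 7 was 0.14, against 0.005 over all genes. Fgf13, an intracellular homologue that is not secreted, was 2.4 higher than in ESC (limma adjusted p = 0.000486) and 2.94 higher than in iPSC lines. Among receptors, Fgfr1, the main receptor of the epiblast, was 0.72 higher in EpiSC lines than in ESC (adjusted p = 0.00799), 1 of 4 receptors tested. The decoy receptor Fgfrl1 had an adjusted p of 0.0938 there and was 1.41 higher than in iPSC lines (adjusted p = 0.0018). Of 20 coreceptor and heparan sulfate genes tested, 6 were higher than in ESC and 0 lower, 30% of the list against 26.2% of all genes, with Flrt3, a membrane protein that binds receptors, at 2.03, the glypican Gpc3 at 1.89 and the sulfotransferase Ndst2 at 1.71 (median 0.68, against 0.02 over all genes). Of 17 adaptor and ERK cascade genes, 4 were higher and 1 lower, the docking protein Gab1 at -3.21 and the exchange factor Sos2 at 1.6 (median -0.12).

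Transcriptional targets of the pathway did not move as a block. Of 14 tested between EpiSC lines and ESC, 4 were higher and 3 lower (limma), with a median of 0.44, where 26.2% of all genes passed. The ERK phosphatase Dusp6 (1.44, adjusted p = 0.006), the immediate early gene Egr1 (1.35), Spry3 (1.31) and Spred1 (0.77) were higher. The factor Etv4 (-2.32, adjusted p = 0.0487), the inhibitor Spry4 (-1.52) and Dusp14 (-1.26) were lower. Against iPSC lines Etv5 was lower too (-1.72, adjusted p = 0.000375). The sublines differed here as well: in CAV3*, where the ligands were lower, 8 of 14 targets were lower and 1 higher (Etv4 -1.9, Egr1 -1.83, Dusp6 -1.54), where 49.2% of all genes passed and 24.9% as lower. In CAV2*, where the ligands were higher, 7 were lower and 1 higher, where 48.2% passed and 26.4% as lower.

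Between the bud and the early period the receptor Fgfr2 was 3.16 ± 0.24 higher (8.94-fold, limma adjusted p = 3.55e-09) and Fgfrl1 -0.99 lower, the 2 receptors tested. Of 12 targets, 5 were lower and 2 higher, where 34% of all genes passed, 16.1% as lower and 17.9% as higher, with Etv5 at -4.86 (adjusted p = 9.63e-07), Etv4 at -3.29, the receptor antagonist Il17rd at -2.19, Dusp4 at -1.17 and Dusp6 at -1.08, while Phlda1 stood at 2.95 and Spred1 at 1.25 (median -0.26, against 0.08 over all genes). Of 18 coreceptor genes 6 were higher, led by Flrt3 (2.62) and Flrt1 (1.96). None of the other 4 ligands tested passed. Mesoderm markers moved with these changes, and 3 of 4 streak and mesoderm markers tested were higher in bud than in early epiblasts (T 3.79, adjusted p = 0.000348, and Mesp1, a factor of nascent mesoderm, 2.71, adjusted p = 0.0173). The summed level of the 5 on the array ran from 31.11 to 41.54 in bud epiblasts and from 27.45 to 29.46 in early epiblasts, and their part in the fall of the ligands was not tested. The pluripotency factors Pou5f1 (-3.31) and Sox2 (-2.87) fell in the same epiblasts, 2 of 5 markers of pluripotent cells, and Tfap2c, used as a marker of extraembryonic ectoderm, was 4.07 higher while the other 4 of that list were not detected on any bud array.

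The genes most like each ligand were named by Pearson's r as a description, over the means of the 22 lines and sublines and over the 17 epiblasts. Over lines, Fgf5 went with Cfap299 (0.855), Fgf8 with Dtx3l (0.797) and the streak ligand Wnt3 (0.775), Fgf15 with the connexin gene Gjb6 (0.811) and the steroid dehydrogenase gene Hsd11b2 (0.746), and Fgf17 with the proteasome genes Psmb10 (0.822) and Psmb8 (0.805) and with Etv4 (0.789), among 2183 genes. Over epiblasts, Fgf5 went with the isoprenoid enzyme gene Fdps (0.968), Fgf8 with the ubiquitin conjugating enzyme gene Ube2s (0.932), and Fgf15 with Il17rd (0.954), the SMAD corepressor gene Skil (0.91) and the Nodal coreceptor gene Tdgf1 (0.9), among 5606 genes. For Fgf17 the highest was 0.766 (LOC386112). Points of this kind share amplification, array set and period.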

How the data were processed

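Raw bead-summary intensities and detection p-values of 112 arrays were used as the authors deposited them. Per the submitters' processing notes the beads were summarised with BeadStudio; its version, the array type and the genome build are not given in the sources used here. The deposited log2 table (31646 of 45281 probes, method not stated) served as an alternative, and 3 of its columns, all of LB2, matched another LB2 array best. From these, background was removed by normexp with parameters taken from the detection p-values, 16 was added, and log2 values of all 112 arrays were quantile normalized together (steps of neqc, limma 3.58.1 and R 4.3.3, files read with data.table, version 1.17.8). Of 28888 gene names, 14724 matched a RefSeq symbol, 5207 a synonym and 8957 kept the file's name. The probe with the highest mean stood for a gene. A gene entered a fit when 3 or more of its arrays detected it (p under 0.01).

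Cultures were averaged to lines, with sublines in their line. Cultures were the unit among lines, for sublines and for amplification, and embryos for epiblasts. Tests were limma's moderated tests (eBayes with trend), 2-sided and checked on simulated data. The limit was an adjusted p of 0.05 (Benjamini-Hochberg, across every gene in the fit). ± is a standard error unless SD is stated. ESC, MEF and EpiSC9 are 1 line each, so their spread is taken from the other groups. Cultures of a line were kept apart for 3 days, per the series design, so p-values among cultures measure the spread between these samples. The same-numbered cultures showed no steady pairing (r of deviations -0.367 to 0.131). Members and lists were chosen with earlier results of these data known. Named genes are all members, and from the lists those past the test, at most 10 a list by size, and the 3 most correlated genes. Array sets are 7 clusters of arrays on background probes. Figures were drawn with matplotlib 3.10.9 in Python 3.11.15. One list result is not reported here.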

Additional observations from a re-analysis of the deposited data

Results flagged for a closer look

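Of 30 tests, each of 1 ligand in 1 group of lines or embryos, 3 found a sample whose gap to the nearest of the others took up more of the group's range than the 95 percent critical value of Dixon's test allows. Chance gives this in about 1 of 20 groups. Fgf15 in line CAV4 stood at 10.03, against 9.709 in the nearest of the 4 Cavity lines. Lines enter as means with their sublines, and taken alone CAV2* (10.6) lay above CAV4 and CAV3 was at 9.91. Fgf17 in line CAV1 stood at 5.13, against 6.57 in the nearest, and 1 of its 3 cultures did not detect the probe. Taken alone, CAV3* was at 5.76 for Fgf17. Fgf15 in the streak epiblast LMS3 stood at 9.163, against 7.736 in the nearest of the 6. That epiblast also had the second highest Fgf8 value of its period (9.64).

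The change between the early and the bud period differed between embryos and lines, by the test of the difference itself, for Fgf5 (-3.79), Fgf8 (-3.93) and Fgf15 (-2.97 on the log2 scale).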

How the results depend on the processing

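Over single ligands, 1916 of the alternatives kept their side of the limit, 52 lost a call, 20 gained one and no called difference turned its sign. Among the 1916, 35 differences that were not called turned their sign (adjusted p of 0.15 or more), among them Fgf8 between iPSC lines and ESC, at 0.52, which was -0.2 without culture 1 of iPSC lines 1 and 2 and -0.75 also without line 3, and Fgf8 between amplified EpiSC and bud epiblasts without PS5 and LB2, where most arrays on either side did not detect it. Streak against early epiblasts had 1 of 4 ligands past the limit, and 0 with median scaling, with no filter, with every probe on its own or without EB3 and LB3 (leave-one-out 0 to 1). Bud against streak had 2, 1 without EB3 and LB3 and 3 with median scaling (leave-one-out 2 to 3). Amplified EpiSC against early epiblasts had 2, with 0 under median scaling, 1 with no filter and 1 without PS5 and LB2 (leave-one-out 0 to 2). Against bud epiblasts there were 2, and 3 without PS5 and LB2 or without PS5. Against streak epiblasts there were 0, and 1 without PS5 and LB2 (leave-one-out 0 to 1). The streak difference between embryos and lines had 0, and 1 with the deposited values (leave-one-out 0 to 1). Amplified against unamplified had 3, or 2 with the replicate block (leave-one-out 1 to 3). The replicate block left 4 among lines and 11 over the sublines. Settings that leave out culture 1 or line 3 of iPSC, EB3 and LB3 or amplified PS5 and LB2 were partly chosen after seeing the data. The cause of these changes was not tested.

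Over all genes, EpiSC9 had 254 calls, against 949 with no filter and 611 without EpiSC9 replicate 1, and fewer by a factor of 1.66 with median scaling, 1.88 with the strict filter and 1.52 with sublines out. Stage of origin had 2, against 5 with the deposited values, 20 with no filter, 10 with sublines out, 1 with median scaling, with the strict filter or with EB1a and EB1b joined, and 0 to 7 without 1 line. iPSC against ESC had 0, against 5 with no filter, 250 from cultures with line as a random block, 1354 without iPSC line 3 and 1714 also without culture 1. Streak against early had 756, against 1171 with median scaling, 444 without epiblast Cav2 and 432 without PS2. Bud against streak had 3786, and 2131 without EB3 and LB3. The streak difference between embryos and lines had 683, against 438 without Cav2 and 451 without PS2. Without replicate 2, LB1* had 2786 in place of 4845 and LMS2* 3743 in place of 5633. ESC, MEF and EpiSC9 are 1 line each, and levels near background, as for Fgf8 in bud epiblasts, limit folds to bounds.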
